A study of Mus musculus with 6 samples.

Results

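Effector CD8 T cells were taken here as single cells that carried T-cell and CD8 transcripts together with transcripts of the effector genes Ccl5, Gzmk and Gzmb. Expression was read as unique molecular identifiers (UMIs), each standing for 1 captured mRNA molecule. A member had at least 200 detected genes and at most 15% mitochondrial counts, at least 2 UMIs of Cd3e, Cd3d and Cd3g together, and at least 2 of Cd8a and Cd8b1 together. It also had at least 2 UMIs of Ccl5, Gzmk and Gzmb together, 0 of Cd4, 0 of the B-cell gene Cd79a and fewer than 10 of the macrophage genes C1qa, C1qb and C1qc together. The rule was met by 2192 of 26843 cells, of which 696 were from MRX, 535 from CTX, 223 from Combined, 430 from ctxd18t and 308 from combod18t. The members were thus chosen by their own counts of these 13 genes, which are described below and take part in no comparison.

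The cells were haematopoietic (CD45-positive) and viable (DAPI-negative) cells sorted from mouse mammary tumours, with 1 library for each treatment label, all made with a 10x Genomics 3′ kit that tells pooled samples apart by barcode. The labels MRX, CTX, Combined, ctxd18t and combod18t are not spelled out by the submitters; the series title names MERTK inhibition, cyclophosphamide and triple negative breast cancer. The protocol is worded alike on every sample: it says that day 7 animals were dosed 3 hours before harvest, and it gives on-chip barcode sets for the MRX, CTX, combination and VC samples but none for the 2 libraries with d18 in their label. Those 2 are called the day 18 libraries here and the other 3, whose labels give no day, the early libraries. Strain, tumour line, number of animals per library, dose and schedule are not given in the sources used here, and the VC library was not analysed here. All 5 libraries thus carry a treatment label, and each group is 1 library, so no difference between groups has a replicate check and no p-value is given. Every interval below is at the 95% level and covers counting error only.

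CD8 T cells recognise peptides on class I MHC molecules through a receptor made of an alpha and a beta chain. Once activated they divide, secrete cytokines and chemokines such as interferon gamma and Ccl5, and kill target cells by releasing perforin and granzymes. In tumours, long stimulation is known to leave many of them with inhibitory receptors such as PD-1 (Pdcd1) and the transcription factor Tox, while cells that keep Tcf7 and Il7r retain features of memory and progenitor cells.

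Several features of the libraries bear on what follows. Members were shallowest in MRX, with a median of 4947.5 UMIs per cell, against medians of 8088 (combod18t) to 9328 (ctxd18t) elsewhere. The summed members held from 2574327 UMIs in Combined to 6189848 in CTX. Some members also carried transcripts of other cell types: at least 3 UMIs of 7 myeloid markers or at least 3 of 6 epithelial markers were present in 66 MRX members (9.48%), 148 CTX members (27.7%), 48 Combined members (21.5%), 74 ctxd18t members (17.2%) and 25 combod18t members (8.12%). These carriers had median depths from 10061.5 to 21790 UMIs, against 4826 to 8365 in the remaining members of the same libraries. The summed level of 12 macrophage and monocyte markers in the members was 1531 CPM for MRX, 4332 for CTX, 3785 for Combined, 2046 for ctxd18t and 1254 for combod18t (CPM are counts scaled to the same total in each library), and lay between 209 and 325 CPM in every library once carriers were left out. Values without carriers, an alternative chosen after the data were seen, are therefore given beside the results they move. Each library used 1 code at bases 8 and 9 of its cell barcodes. Combined and ctxd18t shared a code and 21 barcodes, CTX and combod18t shared a code and 34 barcodes, and no other pair shared a barcode. With the barcode sets of the protocol, ctxd18t thus carried the set given for the combination and combod18t the set given for CTX; whether the 2 day 18 labels are exchanged was not tested, and the direction of every difference between them depends on it. Of the members, 4 from CTX, 1 from ctxd18t and 3 from combod18t had a barcode that also occurred in the other library of the pair.

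The markers that define the members (Cd8a, Cd8b1, Gzmk and Ccl5) belong to the rule, so their summed levels, 2586 CPM in Combined to 7014 CPM in MRX, are no check of the label. Nkg7, a granule protein of cytotoxic lymphocytes that the rule did not use, had a UMI in 95.7% to 98.6% of the members of each library. Cd79a and Cd4 were at 0 by the rule, and all 9 B and plasma cell markers together summed to 32.5 to 58.3 CPM. The neutrophil list reached 121 CPM in MRX, 211 in ctxd18t and 17.9 to 45.0 elsewhere, and the epithelial list 211 CPM in ctxd18t (5.83 without carriers) and 6.30 to 10.5 elsewhere. Of these, Retnlg and Cxcr2 were at 0 in CTX and Combined and Krt19 in all 5 libraries; without carriers the neutrophil list summed to 5.23 to 48.1 CPM. The natural killer cell list reached 315 to 860 CPM, and its member Gzma made up most of that; the killer receptor gene Klra8 was at 0 in MRX, CTX, Combined and ctxd18t. The regulatory T-cell list reached 358 to 1744 CPM, through Ikzf2, Il2ra and Ctla4, which activated CD8 T cells also express. Of the remaining lists, gamma-delta T cells reached 93.4 to 180 CPM, invariant NKT cells 25.4 to 57.3, dendritic cells 47.7 to 103, stromal and endothelial cells 39.9 to 79.2, and CD4 T cells and erythroid cells under 5 CPM.

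The genes of the rule differed in how often they were seen. Ccl5, a chemokine that draws T cells and monocytes, had a UMI in 97.4% of members from MRX, 92.0% from CTX, 87.9% from Combined, 96.3% from ctxd18t and 97.4% from combod18t. Gzmk, the granzyme of early effector and memory cells, was present in 74.0%, 65.2%, 70.0%, 58.1% and 59.1% in the same order. Gzmb, the granzyme most tied to killing, was present in 64.4%, 65.8%, 72.2% and 58.8% of members in the first 4 libraries and in 38.3% in combod18t. Members were mostly far from the effector threshold: their median sum of Ccl5, Gzmk and Gzmb was 34.5 UMIs for MRX, 24 for CTX, 27 for Combined, 43.5 for ctxd18t and 25 for combod18t. Just inside it, with exactly 2 UMIs, lay 21, 34, 10, 15 and 17 members, and just outside, with exactly 1, lay 38, 57, 31, 38 and 62 CD8 T cells.

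Effector CD8 T cells made up the largest share of kept cells in MRX and the smallest in Combined. In the early libraries they were 12.8% of kept MRX cells (11.9 to 13.7%), 6.01% of CTX cells (5.53 to 6.53%) and 4.98% of Combined cells (4.36 to 5.66%). In the day 18 libraries they were 10.7% (9.78 to 11.7%) for ctxd18t and 7.67% (6.86 to 8.53%) for combod18t. The Combined share was 1.03 percentage points under CTX (Newcombe interval -1.82 to -0.203), and the combod18t share was 3.06 points under ctxd18t (-4.32 to -1.79). Without carriers the differences were -0.440 points (-1.13 to 0.291) and -1.83 points (-3.02 to -0.648). With at least 4 UMIs asked of the effector clause the first was -0.635 points (-1.39 to 0.162), so that its interval included 0 in both cases. As a share of T cells the members were 34.0% for MRX, 24.6% for CTX, 17.3% for Combined, 31.0% for ctxd18t and 11.6% for combod18t. In percentage points, the 2 day 18 libraries stood furthest apart among CD8 T cells: members were 70.4% of CD8 T cells in ctxd18t and 46.3% in combod18t, a difference of -24.1 points (-29.2 to -18.7). The early libraries were closer there, at 72% in MRX, 68.9% in CTX and 65.4% in Combined, and the interval of Combined minus CTX ran from -9.63 to 2.34 points. All CD8 T cells together, members or not, were 15.2% of kept cells in ctxd18t and 16.6% in combod18t. When every kept cell was thinned to 2000 UMIs, the rule was met by 6.79% for MRX, 2.10% for both CTX and Combined, 5.62% for ctxd18t and 3.70% for combod18t. Thinned, Combined and CTX thus had the same share and the day 18 libraries still differed. Thinning also makes the clauses that exclude cells easier to meet, so other cells can pass. Median depth of kept cells was already 9134.5 UMIs in CTX and 8502 in Combined, and the part of depth in their difference was not tested.

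**Figure D1:**
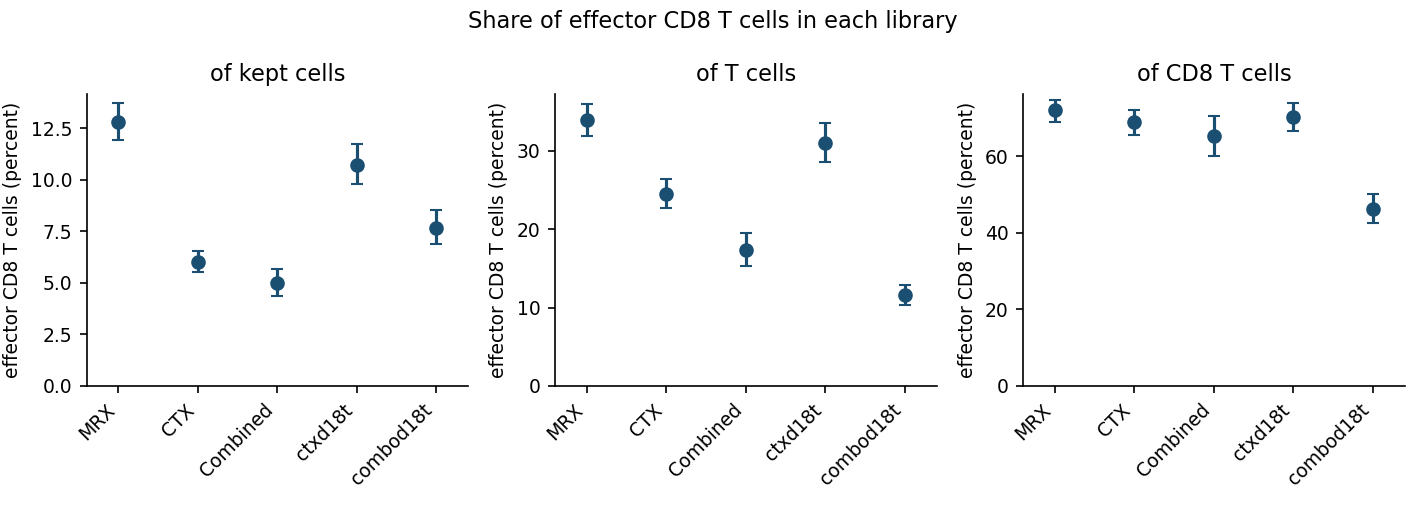
Percent of kept cells, of T cells and of CD8 T cells (y axes) that met the effector rule in each of the 5 libraries (x axes); points are shares and bars are exact Clopper-Pearson intervals, which cover counting error only. Among CD8 T cells, combod18t sits at 46.3% and the other 4 libraries between 65.4% and 72%.

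Raw counts were summed over a library's members and scaled to CPM for the levels below, whose intervals are exact Poisson intervals, and ratios are of CPM + 1 on the log2 scale. A gene was compared where both libraries together held at least 50 counts of it and either reached 50 CPM, and it was called higher or lower at a 2-fold difference. Against CTX, Combined had 4 of 3878 genes called higher (0.103%) and 23 called lower (0.593%); without carriers these were 10 of 3813 (0.262%) and 7 (0.184%). The members of these 2 libraries thus differed at few genes, and the median log2 ratio of all genes compared was 0.07.

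Granule genes were mostly within the 2-fold limit between Combined and CTX, while 5 of 6 cytokine and chemokine genes compared lay under 0. Gzma, a granzyme that cuts proteins inside target cells, was at 206 CPM for MRX, 436 for CTX, 750 for Combined, 237 for ctxd18t and 191 for combod18t, a log2 ratio of 0.78 (0.70 to 0.87) in Combined against CTX. Prf1, the pore-forming perforin, was at 62.0, 80.6, 104, 251 and 109 CPM in the same order, a log2 ratio of 0.36 (0.15 to 0.59). Neither passed the 2-fold limit. Of the cytotoxic granule list, 1 of 11 genes compared was past it: Gzmc was at 62.7 CPM in CTX and 19.8 in Combined (log2 ratio -1.61), but 93.3% of its CTX counts came from 5 cells, and the ratio was 1.64 without members that had a Mki67 or Top2a UMI and 0.60 without other T or natural killer lineages. The list's median was 0.22.

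Of the effector cytokine and chemokine list, 2 of 6 genes compared were lower in Combined than in CTX and 0 were higher, with a median of -0.40. Without carriers 2 of 7 were lower and 0 higher, 6 of 7 lay under 0, and the median was -0.71. Ccl3, a chemokine for monocytes and T cells, was at 71.4 CPM in CTX and 27.2 in Combined (log2 ratio -1.36, -1.78 to -1.03). Its 5 highest cells held 62.9% of the CTX counts and 64.3% of the Combined counts. Ccl1 was at 59.3 and 12 CPM (-2.21), and its 5 highest cells held 82.6% of the CTX counts and 93.5% of the Combined counts. Ifng, which encodes interferon gamma, was at 113 CPM in CTX (105 to 122) and 76.5 in Combined (66.2 to 88.0), short of the 2-fold limit. Havcr2, which encodes the inhibitory receptor TIM-3, was at 123 CPM in CTX and 50.1 in Combined (-1.28, -1.58 to -1.03), the only gene past the limit among 8 compared of the inhibitory receptor list. Pdcd1 was at 207 and 284 CPM and Tox at 210 and 211 CPM.

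Of the 4 genes called higher in Combined, those named by the rule of size were Klra3, Ifitm1 and Cxcl10. Ifitm1, an interferon-induced membrane protein, was at 91.3 CPM in CTX and 217 in Combined (1.24, and 1.5 without carriers), with 52.9% of the CTX counts and 53.9% of the Combined counts in 5 cells each. Klra3, a killer lectin-like receptor gene, was at 14.2 and 56.7 CPM (1.92), with 65.1% of the Combined counts in 5 cells and a ratio of -1.14 once other T or natural killer lineages were left out. Cxcl10, an interferon-induced chemokine that macrophages also make, was at 111 and 242 CPM (1.12, and 1.76 without carriers). The acute-phase gene Saa3 led the lower side at -2.46, and the myeloid chemokine gene Ccl6 was at -1.45; in members without carriers neither was above 12.3 CPM in any library. No gene passed the limit in the naive, memory and progenitor (13 compared), terminal effector (9), residence and homing (13), costimulation (10), receptor signalling (15), interferon-stimulated (16), p53 response (7), glycolysis (15) or oxidative phosphorylation (20) lists, whose medians lay between -0.06 and 0.21. Of the killer receptor list, Klra3 alone of 7 did, and without carriers Klra3, Fcer1g and Tyrobp of 8 did.

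Genes that mark differentiation were, where high enough to be compared, within the 2-fold limit between Combined and CTX. Tcf7, which encodes the progenitor factor TCF-1, was at 89.7 CPM in CTX to 123 CPM in MRX, below the 279 to 327 CPM of the CD8 T cells that missed the effector clause. Klf2, a factor of quiescence and recirculation, was at 237, 122, 193, 184 and 221 CPM in the order MRX, CTX, Combined, ctxd18t and combod18t. The terminal effector list of 14 genes summed to 1546 CPM in MRX to 3181 CPM in ctxd18t. Of its named genes, Klrg1 was at 8.63 to 23.7 CPM and the fractalkine receptor gene Cx3cr1 at 3.11 to 24.3 CPM. The chemokine receptor gene Cxcr3 was at 41.4 to 75.7 CPM, the cytokine gene Tnf at 13.1 to 20.2 CPM and the proliferation gene Mki67 at 339 to 439 CPM.

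The day 18 libraries differed at more genes, and most of those calls moved with the carriers. Against ctxd18t, combod18t had 16 of 4228 genes called higher (0.378%) and 82 called lower (1.94%). Without carriers there were 11 of 4135 higher (0.266%) and 13 lower (0.314%). The median log2 ratio of all genes compared was 0.04 with all members and 0.03 without carriers. The genes with the lowest ratios included Wfdc18 (298 CPM in ctxd18t and 1.54 in combod18t), Csn3 (123 and 0.925) and Ccnd1 (152 and 12.6), and Mcpt1 and Krt17 had counts in ctxd18t and 0 in combod18t. Epithelial markers moved with them: 17 ctxd18t members carried at least 3 UMIs of 6 epithelial markers, and 5 of these members held 990 of the 1128 such UMIs in the library's members. Without carriers, Wfdc18 was at 1.39 and 1.47 CPM, Csn3 at 0.556 and 1.10, Ccnd1 at 8.89 and 9.52, and Mcpt1 and Krt17 at 0 in both. The chemokine genes Cxcl11 and Cxcl10, the interferon-stimulated gene Rsad2, Vegfa and the signalling adaptor gene Fcer1g were likewise called lower in combod18t with all members. Without carriers Cxcl10 was at 51.4 and 42.1 CPM, and the other 4 were at most 26.4 CPM in either library, too low to be compared.

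Some effector genes were lower in combod18t with and without carriers. Prf1 was at 251 CPM (238 to 265) in ctxd18t and 109 (98.0 to 121) in combod18t, a log2 ratio of -1.20, or -1.42 without carriers. Ccl4, a chemokine that draws T cells, natural killer cells and monocytes, was at 426 and 96.8 CPM (-2.12, and -2.14 without carriers); 48.1% of ctxd18t members and 23.7% of combod18t members had a UMI of it. Ifng was at 78.0 and 42.5 CPM (-0.86, and -1.01 without carriers), and Ccl3 at 71.1 and 37.9 CPM (-0.89, and -1.07). In combod18t, 78.9% of the Ccl3 counts came from 5 cells. Of the cytokine and chemokine list, 1 of 6 genes compared was thus called lower with all members and 3 of 6 without carriers, while all 6 lay under 0 without carriers and the list's median was -0.82.

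Il7r and Ccr7 lay on the other side. Il7r, the receptor for the survival cytokine interleukin-7, was at 288 CPM in ctxd18t and 486 in combod18t, and Ccr7, the lymph-node homing receptor, was at 103 and 226 CPM (1.12, and 0.92 without carriers). Of the naive, memory and progenitor list, 13 of 14 genes compared lay above 0, with a median of 0.43 and Ccr7 alone past the limit; without carriers 10 of 14 lay above 0, with a median of 0.30. Glycolysis and hypoxia genes all lay under 0, 13 of 13 compared with a median of -0.54, among them Tpi1, a glycolytic enzyme gene, at 161 and 62.9 CPM. Tpi1 and Vegfa were the genes of that list past the limit. Without carriers 12 of 12 lay under 0, with a median of -0.51, and 0 passed the limit. The S-phase and G2/M lists had medians of -0.41 and -0.48, with 11 of 12 and 10 of 10 genes under 0. The exhaustion genes Pdcd1 (427 and 420 CPM) and Tox (712 and 845) were close, and 0 of 13 genes compared of the inhibitory receptor list passed the limit. Prf1 was the only gene past it among 10 compared of the cytotoxic granule list (median -0.20).

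The other lists showed few calls at day 18. Ahr, a receptor for environmental ligands, was the only gene called of 14 in the residence and homing list, Rsad2 of 16 in the interferon-stimulated list, and Fcer1g and Tyrobp of 7 in the killer receptor list, all lower in combod18t; none of the 4 was called without carriers. The interferon-stimulated list had 13 of 16 genes under 0 with a median of -0.19, whereas without carriers 8 of 14 lay above 0, with a median of 0.06 and Ifi44 called higher. The terminal effector (10 compared), costimulation (10), receptor signalling (16), p53 response (10) and oxidative phosphorylation (20) lists had 0 calls. Isg15, an interferon-stimulated gene, was at 243 CPM in ctxd18t and 143 in combod18t.

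The genes named by size as higher in combod18t were Lsamp, Ttn, Ptprk, Pde4a, Magi3 and St6galnac3. Lsamp, a cell adhesion gene, was at 32.4 CPM in ctxd18t and 198 in combod18t (2.58), in 7.67% and 16.2% of members. St6galnac3, a sialyltransferase gene, was at 133 and 330 CPM (1.30), and the phosphodiesterase gene Pde4a at 18.2 and 50.9 CPM (1.44). Ptprk was at 28.3 and 104 CPM, with 95.6% of the combod18t counts in 5 cells, and without cycling members its ratio was -0.87. Over both pairs of libraries, 0 of 3244 genes that were compared in both and open to naming by size were called higher in both and 0 were called lower in both. With the 2 day 18 libraries exchanged the counts would be 1 (Cxcl10) and 0.

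**Figure D2:**
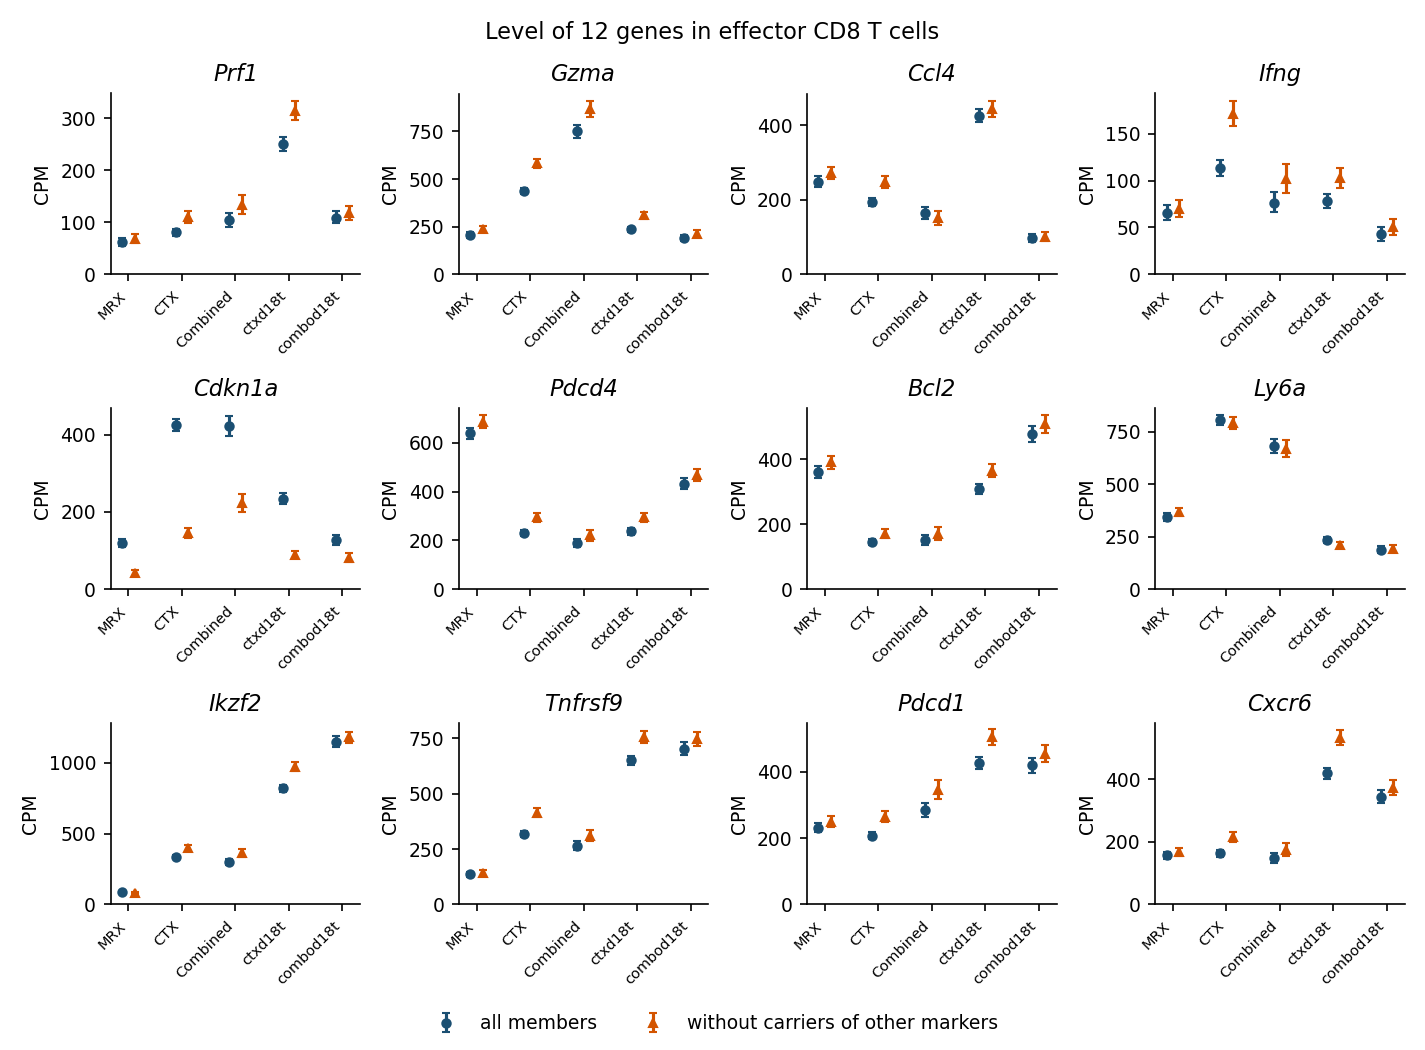
Level in CPM (y axes, each from 0) of 12 genes in the members of the 5 libraries (x axes), with all members (circles) and without carriers of myeloid or epithelial markers (triangles); bars are exact Poisson intervals. Ccl4 stands at 426 CPM in ctxd18t and 96.8 in combod18t, and Cdkn1a stands at 425 CPM in CTX and 421 in Combined against 120 in MRX.

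CTX and Combined differed more from MRX than from each other, and both of these comparisons share the MRX library. CTX had 172 of 3904 genes called higher than MRX (4.41%) and 48 lower (1.23%), or 70 of 3834 higher (1.83%) and 43 lower (1.12%) without carriers. Combined had 104 of 3981 higher (2.61%) and 45 lower (1.13%), or 81 of 3926 (2.06%) and 52 (1.32%) without carriers. With all members, the median log2 ratio of all genes compared was -0.04 in CTX and 0.01 in Combined. MRX members were also the shallowest and had the fewest carriers of the early libraries, and the part of either in these differences was not tested beyond the values given.

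Cdkn1a, which encodes the cell-cycle inhibitor p21 and is a target of p53, was at 120 CPM for MRX (110 to 131), 425 for CTX (409 to 441), 421 for Combined (396 to 447), 234 for ctxd18t and 127 for combod18t. Its log2 ratio to MRX was 1.81 in CTX and 1.80 in Combined. Levels without carriers were lower, at 41.7 CPM in MRX, 146 in CTX and 223 in Combined, and the ratios were 1.78 and 2.39. A UMI of Cdkn1a was found in 18.5% of MRX, 55.7% of CTX and 57.4% of Combined members. Other p53 response genes were closer: Cdkn1a was the only 1 of 7 compared past the limit against MRX in either library. Bax, which promotes cell death, was at 143, 257 and 244 CPM, and Mdm2, which degrades p53, at 65.9, 113 and 106 CPM, in MRX, CTX and Combined; without carriers Mdm2 was at 62.8, 69.0 and 64.5 CPM.

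The genes Pdcd4, Tsc22d3, Klhl6 and Pgm2l1, named by size, and Bcl2 were lower in both CTX and Combined than in MRX. Pdcd4, an inhibitor of translation, was at 638 CPM in MRX, 230 in CTX and 190 in Combined, log2 ratios of -1.47 and -1.74. Tsc22d3, a glucocorticoid-induced regulator, was at 293, 81.4 and 96.3 CPM (-1.84 and -1.60), and Bcl2, which blocks cell death, at 361, 145 and 150 CPM (-1.31 and -1.26). Klhl6 and Pgm2l1 were lower in both as well, at 213 and 109 CPM in MRX and under 72 CPM in the other 2 libraries. All 5 kept ratios under -1 without carriers. Bcl2 was the only gene past the limit among 14 compared of the naive, memory and progenitor list in each comparison, and the list's medians were -0.48 and -0.28.

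Other genes were higher in both libraries than in MRX, with Tnfrsf9 and Ly6a just short of the limit in Combined. Ikzf2, which encodes the transcription factor Helios, was at 88.3 CPM in MRX, 335 in CTX and 296 in Combined (1.91 and 1.74), and Tnfrsf9, a costimulatory receptor induced by antigen, at 137, 318 and 266 CPM (1.21 and 0.95). Ly6a, an interferon-induced surface protein, was at 345, 805 and 681 CPM (1.22 and 0.98). Tent5a, a poly(A) polymerase gene, was at 21, 73.0 and 72.6 CPM (log2 ratios 1.75 and 1.74), and the protease inhibitor gene Serpina3g at 7.84, 58.5 and 83.5 CPM. Gzma had log2 ratios of 1.08 and 1.86. Ikzf2, Tnfrsf9, Ly6a, Bcl2, Bax, Mdm2 and Rrm2 were named after their values were seen.

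Part of the cell-cycle lists was called higher than in MRX. Of the S-phase list, 2 of 14 genes compared were called higher in CTX than in MRX (median 0.52) and 5 of 16 in Combined (median 0.92), and 0 were lower; without carriers these were 5 of 16 and 10 of 16. Their medians were then 0.85 and 1.11. Rrm2, a subunit of ribonucleotide reductase, was at 61.6 CPM in MRX, 150 in CTX and 181 in Combined, and without cycling members its ratio in Combined was -0.74. Of the G2/M list, 3 of 12 were called higher in CTX (median 0.61) and 0 of 10 in Combined (median 0.33), or 8 of 15 and 2 of 13 without carriers. Between Combined and CTX the lists parted: 15 of 16 S-phase genes lay above 0, with a median of 0.28, and 11 of 12 G2/M genes lay under 0, with a median of -0.29, all within the 2-fold limit. Without carriers 13 of 16 S-phase genes lay above 0, with a smaller median of 0.16. In the same setting 15 of 15 G2/M genes lay under 0, with a median of -0.55 and Ube2c called lower. In members thinned to 2000 UMIs, at least 2 UMIs of the G2/M list were found in 18.8% of MRX members (15.9 to 21.9%), 39.1% of CTX (34.9 to 43.3%), 37.2% of Combined (30.9 to 43.9%), 24.0% of ctxd18t members (20.0 to 28.3%) and 17.3% of those of combod18t (13.2 to 22.0%). The same measure lay between 4.48% and 11.2% in the CD8 T cells that missed the effector clause, and reached 17.3% in the B cells of ctxd18t. Of the oxidative phosphorylation list, 19 of 20 genes lay above 0 in CTX (median 0.36) and 16 of 20 in Combined (median 0.47), and 0 passed the limit.

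Calls in the other lists were few and partly different in the 2 libraries, a difference that was not tested. Of the inhibitory receptor list, Ikzf2 was called higher and the receptor gene Tigit lower in both, and Rgs16 higher in CTX, of 10 compared. Of the costimulation list, Il2ra and Tnfrsf9 were called higher in CTX and Il2ra in Combined, of 10, and of the terminal effector list Zeb2 and Irf8 in CTX and Irf8 in Combined, of 9. Of the cytotoxic granule list, Gzma and Gzmc were called higher in CTX (11 compared) and Gzma in Combined (10 compared), and of the cytokine and chemokine list Ccl3 was called higher in CTX (6 compared) and Ccl1 lower in Combined (5 compared). In CTX, Ly6a was called higher and Ifit1, Ifit3 and Rsad2 lower of 19 interferon-stimulated genes, Itga1 and Itga4 lower of 13 residence and homing genes, and Dusp2, Nfatc1 and Tnfaip3 lower of 15 receptor signalling genes; in Combined none of these 3 lists had a call. Tpi1 and Vegfa in CTX and Slc2a1 and Vegfa in Combined were called higher among 15 and 14 glycolysis and hypoxia genes. Calls in the killer receptor list were Fcer1g and Tyrobp in CTX and Klra3 and Tyrobp in Combined. Without carriers, the calls of both integrin genes, Dusp2, Nfatc1, Tnfaip3, Fcer1g, Tyrobp, Zeb2, Tigit, Ifit1 and Vegfa in CTX and of Slc2a1 and Vegfa in Combined were gone, and Fcer1g, Il18rap and Tnfrsf9 (higher) and Rsad2 (lower) were called in Combined and Ifng (higher) in CTX.

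**Figure D3:**
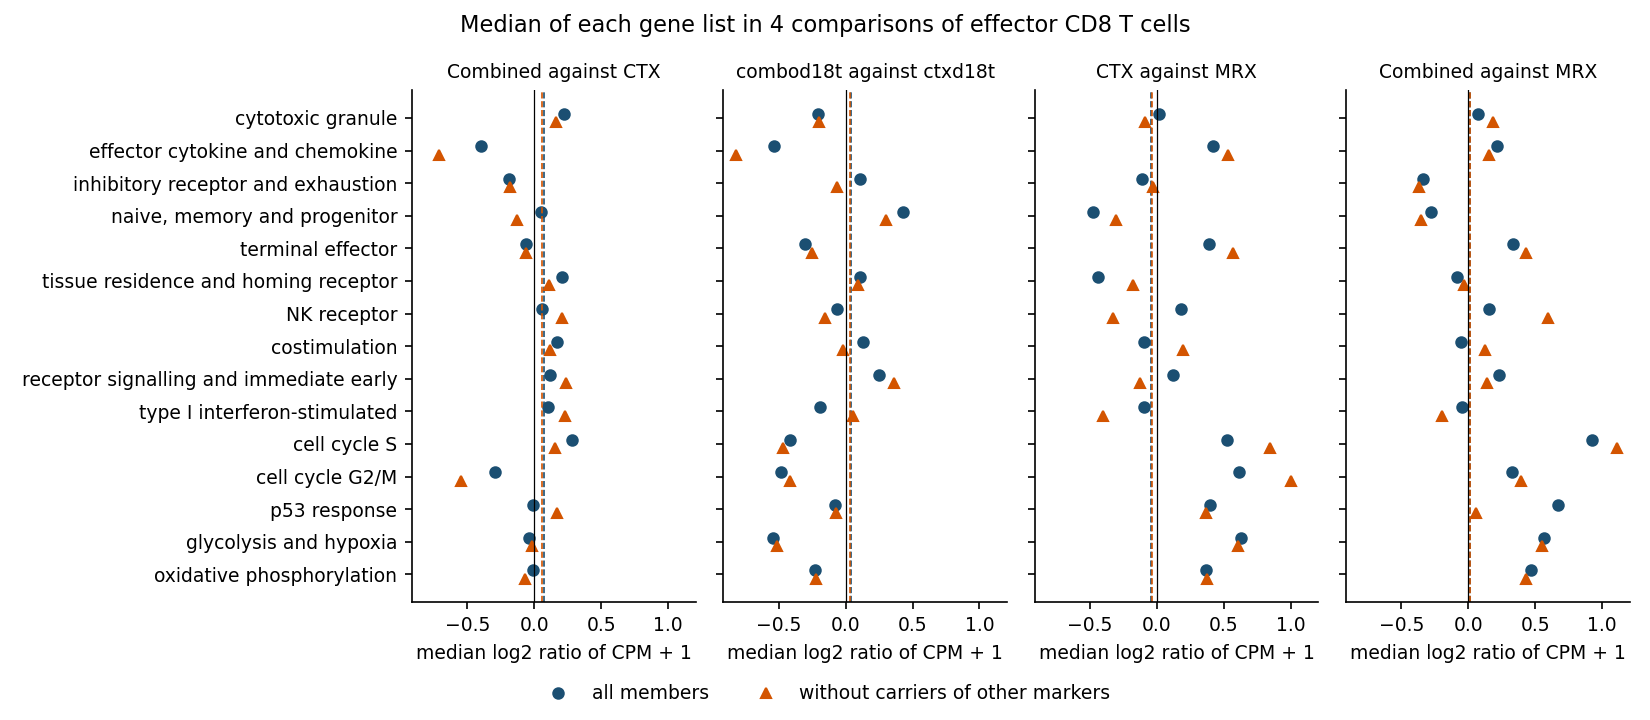
Median log2 ratio of CPM + 1 (x axes) over the genes compared of 15 lists (rows) in 4 comparisons, with all members (circles) and without carriers (triangles); dashed lines are the medians of all genes compared. The S-phase list stands at 0.92 in Combined against MRX, and the glycolysis and hypoxia list at -0.54 in combod18t against ctxd18t.

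Besides the day in their label, the day 18 libraries reuse the barcode codes of early libraries; day and a separate preparation cannot be told apart, so levels are set side by side. By a rule chosen after the data were seen, 66 of 4563 genes (1.45%) were at least 2-fold above all 3 early libraries in both day 18 libraries and 2 (0.0438%) were at least 2-fold below. Without carriers these were 72 of 4503 (1.6%) and 3 (0.0666%). Ikzf2 was at 88.3, 335 and 296 CPM in MRX, CTX and Combined, and at 820 and 1149 CPM in ctxd18t and combod18t. Tnfrsf9 was at 651 and 703 CPM in the day 18 libraries, and Cxcr6, a chemokine receptor of tissue-resident T cells, was at 148 to 163 CPM early and at 420 and 344 CPM at day 18. Klre1, a killer lectin-like receptor gene, was at 22.8 to 36.5 CPM early and at 128 and 139 CPM at day 18, and Nr4a3, an immediate early gene of receptor signalling, at 147 to 165 CPM and at 354 and 494 CPM. Ly6c2, which encodes a Ly6C surface protein of effector and memory cells, was below, at 303, 393 and 434 CPM early and 145 and 143 CPM at day 18. Pdcd1 (207 to 284 CPM early, 427 and 420 at day 18), Tox (210 to 409 and 712 and 845) and Lag3 (14.3 to 29.2 and 79.0 and 50.5) were higher at day 18 too, each without a 2-fold gap in both libraries. Of the lists, 1 gene each was above in the cytokine and chemokine (Tnfsf10), terminal effector (Bhlhe40), residence and homing (Cxcr6), killer receptor (Klre1), costimulation (Tnfrsf9) and receptor signalling (Nr4a3) lists, 2 in the inhibitory receptor list (Cd200r1 and Ikzf2) and 0 in the other 8. Without carriers Tnfsf10, Bhlhe40, Cxcr6 and Tnfrsf9 missed the 2-fold gap, and Prdm1 had it. In members thinned to 2000 UMIs, a UMI of both Pdcd1 and Tox was found in 15.6% of MRX, 12% of CTX and 11.7% of Combined members, and in 36.7% of ctxd18t and 35.2% of combod18t members. Shares with Tox were higher at day 18 in other cells too: thinned alike, it was found in 28.8 to 31.9% of CD8 T cells outside the effector clause early and in 58.0% and 49.3% at day 18, and in 0.180 to 1.94% and in 11.6% and 5.24% of B cells. In the CD8 T cells that missed the effector clause, Ikzf2 was at 124 to 355 CPM early and 471 and 462 CPM at day 18, and Cxcr6 at 42.4 to 70.8 and 180 and 70.8 CPM.

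The T-cell receptor, which the rule did not use, set the members of the day 18 libraries apart from the early ones. The variable segments lie at the 5′ end of the receptor mRNA, and a 3′ assay reads them only in some cells: a beta-chain variable (Trbv) segment was detected in 36.6% of MRX, 39.8% of CTX, 35.0% of Combined, 70.5% of ctxd18t and 61.7% of combod18t members. Among members with exactly 1 such segment, Trbv2 led in MRX and Trbv1 in both day 18 libraries. Their ends are printed here, with 2 alpha-chain segments found beside Trbv1, because their use is described below. Other T cells use these segments too. Each sequence is read 5′ to 3′ from the GENCODE vM21 transcripts of build GRCm38, which is older than the build the submitters name for the counts. The capitals run from the codon of the conserved cysteine, where the antigen-contacting loop begins, to the end of the segment; the lower-case bases are the 90 before it. Trbv1 lies at chr6:40891229-40891885, Trbv2 at chr6:41047340-41047995, Trav3-3 at chr14:53665929-53666506 and Trav3-1 at chr14:52580665-52581213, all on the plus strand and all protein-coding variable segments of the receptor loci.
Trbv1: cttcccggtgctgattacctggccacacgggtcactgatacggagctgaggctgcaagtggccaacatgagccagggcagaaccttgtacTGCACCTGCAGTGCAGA
Trbv2: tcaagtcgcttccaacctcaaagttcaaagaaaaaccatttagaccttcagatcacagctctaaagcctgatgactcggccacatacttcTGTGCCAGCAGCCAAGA
Trav3-3: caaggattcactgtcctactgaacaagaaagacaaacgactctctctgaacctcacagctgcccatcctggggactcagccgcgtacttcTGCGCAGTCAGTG
Trav3-1: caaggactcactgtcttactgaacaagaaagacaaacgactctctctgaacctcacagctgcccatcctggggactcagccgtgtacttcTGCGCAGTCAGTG
The 90 bases before the cysteine codon were identical between Trbv1 and Trbv2 at 25 positions, so reads of these 2 segments are easily told apart. Trav3-3 and Trav3-1 were identical at 87 of the 90 and at all 13 bases printed in capitals, and at 301 of 330 coding bases (91.2%). Trav3-3 was identical to each of its copies Trav3d-3 and Trav3n-3 at 326 of 330 coding bases (98.8%), and the files list 0 UMIs for both copies, so a Trav3-3 count may hold reads of any of the 3.

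Trbv2 was carried by 76 of 238 MRX members with exactly 1 beta segment (31.9%, 26.1 to 38.3%), by 31 of 196 in CTX (15.8%, the same count as Trbv13-1), 11 of 72 in Combined (15.3%), 24 of 244 in ctxd18t (9.84%) and 5 of 165 in combod18t (3.03%). Trbv1 was carried by 10 of 238 MRX members (4.20%), 14 of 196 CTX members (7.14%) and 5 of 72 Combined members (6.94%). In ctxd18t it was carried by 95 of 244 members (38.9%, 32.8 to 45.4%) and in combod18t by 61 of 165 (37.0%, 29.6 to 44.8%). The day 18 libraries thus lay close together in Trbv1 use and stood apart from the early libraries, with intervals that did not overlap. Other T cells of the day 18 libraries used Trbv1 less often, at 21% and 15.6% of CD8 T cells outside the effector clause and 13.7% and 10.6% of CD4 T cells. These differences between cells of 1 library were not tested. Among CD8 T cells outside the clause the early shares were 6.76% in MRX, 11.4% in CTX and 3.13% in Combined. Trbv1 was thus more frequent at day 18 in those cells too, though with overlapping intervals. The shares were 37.9% and 38.7% without carriers, and 45.7% in ctxd18t among members with at least 2 UMIs of exactly 1 segment. Under the same requirement the Trbv2 share was 57.6% in MRX and 29.8% in CTX. In MRX, 15 of 69 members with exactly 1 beta and 1 alpha segment carried Trbv2 with Trav13-1.

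**Figure D4:**
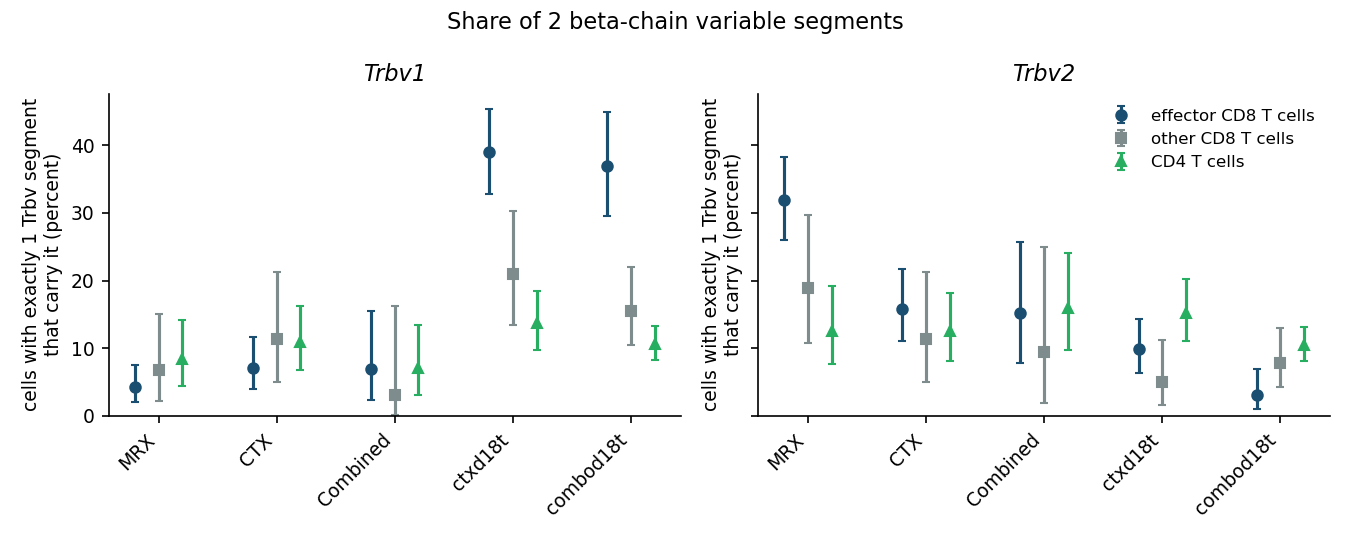
Percent of cells with exactly 1 Trbv segment that carried Trbv1 or Trbv2 (y axis) in each library (x axes), for effector CD8 T cells (circles), other CD8 T cells (squares) and CD4 T cells (triangles); bars are exact Clopper-Pearson intervals. Trbv1 stands at 38.9% and 37.0% of effector cells in the day 18 libraries and at 4.20% to 7.14% in the early ones.

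Members with Trbv1 differed at several genes from members with another segment, in both day 18 libraries. This comparison, within a library, and its genes were chosen after the data were seen. Pdcd1 had a UMI in 92 of 95 Trbv1 members of ctxd18t (96.8%, 91.0 to 99.3%) and in 85 of 149 members with another segment (57.0%, 48.7 to 65.1%). In combod18t these were 60 of 61 (98.4%, 91.2 to 100%) and 55 of 104 (52.9%, 42.8 to 62.8%). Ikzf2 was found in 77.9% and 36.2% in ctxd18t and in 95.1% and 36.5% in combod18t, and Tnfrsf9 in 93.7% and 57.0%, and in 93.4% and 51.0%. Lag3, Klre1, Sema6d and Cxcr6 lay the same way. Lag3, an inhibitory receptor gene, had a UMI in 68.4% of Trbv1 and 24.8% of other members in ctxd18t, and in 63.9% and 16.3% in combod18t. Klre1 was found in 73.7% and 21.5%, and in 68.9% and 17.3%, and Sema6d, a semaphorin gene, in 68.4% and 21.5%, and in 78.7% and 18.3%. Cxcr6 was found in 95.8% and 59.7%, and in 91.8% and 53.8%. Not every such gene did: in ctxd18t the inhibitory receptor gene Tigit was at 86.2 and 81.1 CPM (log2 ratio 0.09, -0.28 to 0.46) and Tox2 at 20.7 and 19.4 CPM (0.09, -0.70 to 0.87). In combod18t both were higher in Trbv1 members, Tigit at 138 and 84.0 CPM (0.70, 0.28 to 1.15) and Tox2 at 37.8 and 15.7 CPM (1.22, 0.32 to 2.25), whereas the shares with Havcr2 in combod18t had overlapping intervals (31.5 to 57.6% and 18.7 to 36.5%).

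Tcf7 and Ly6c2 lay the other way. Tcf7 had a UMI in 10.5% of Trbv1 and 43.6% of other members in ctxd18t, and in 24.6% and 47.1% in combod18t. Ly6c2 was found in 15.8% and 54.4% in ctxd18t and in 6.56% and 51.9% in combod18t. In combod18t the intervals of Tcf7 met, at 14.5 to 37.3% and 37.2 to 57.2%. These 9 genes were chosen for such a difference, so that their count is no result. Among all genes with a UMI in at least 10 of the cells compared, the shares of Trbv1 and other members had intervals without overlap at 3.86% of 10158 genes in ctxd18t (314 higher in Trbv1 members and 78 lower) and at 3.5% of 9024 in combod18t (252 higher and 64 lower). By level, the recirculation genes Klf2 and Cxcr3 were lower in Trbv1 members as well, Klf2 at 84.5 and 197 CPM in ctxd18t and 93.7 and 274 CPM in combod18t, and Cxcr3 at 14.9 and 53.9, and 16.6 and 59.1 CPM. Klrd1, a killer lectin-like receptor gene, was higher, at 838 and 315, and 808 and 333 CPM.

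Depth, carriers and free RNA were measured beside these shares. Median depth was 10453 UMIs in Trbv1 members and 8984 in other members of ctxd18t, and 8670 and 8178 in combod18t. Carriers were 20 of 95 and 26 of 149, and 3 of 61 and 12 of 104. After thinning to 2000 UMIs, Pdcd1 was found in 70.5% of Trbv1 and 32.9% of other members in ctxd18t and in 82.0% and 35.6% in combod18t, against 0.272% and 0 of 229 B cells, the latter allowing up to 1.60% by the exact Clopper-Pearson limit. Thinned Tcf7 was found in 2.11% and 17.4%, and in 8.20% and 17.3%. With thinning, intervals without overlap were left at 159 of 6325 genes in ctxd18t (2.51%) and 132 of 5270 in combod18t (2.5%), and in combod18t those of Lag3 (6.98 to 26.2% and 0.599 to 8.20%) and Tcf7 overlapped. The early libraries had 10, 14 and 5 Trbv1 members in MRX, CTX and Combined. Pdcd1 was found in 8 of these 10 and 119 of 228 other members in MRX, 11 of 14 and 105 of 182 in CTX and 5 of 5 and 43 of 67 in Combined, with overlapping intervals. Ikzf2 was found in 1 of 10 and 26 of 228 in MRX, in 12 of 14 and 70 of 182 in CTX (57.2 to 98.2% and 31.4 to 45.9%), and in 3 of 5 and 27 of 67 in Combined. Tcf7 was found in 4 of 10 and 67 of 228, 5 of 14 and 62 of 182, and 2 of 5 and 24 of 67. Ly6c2 was found in 8 of 10 and 142 of 228, 8 of 14 and 128 of 182, and 4 of 5 and 59 of 67. The intervals of both genes overlapped in each early library, and Tcf7 was not lower in Trbv1 members in any of them. Per CPM, the log2 ratio at day 18 of Trbv1 to other members was 1.36 (1.20 to 1.52) and 1.11 (0.91 to 1.31) for Pdcd1, 0.83 and 1.99 for Ikzf2, and -2.87 and -1.16 for Tcf7.

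**Figure D5:**
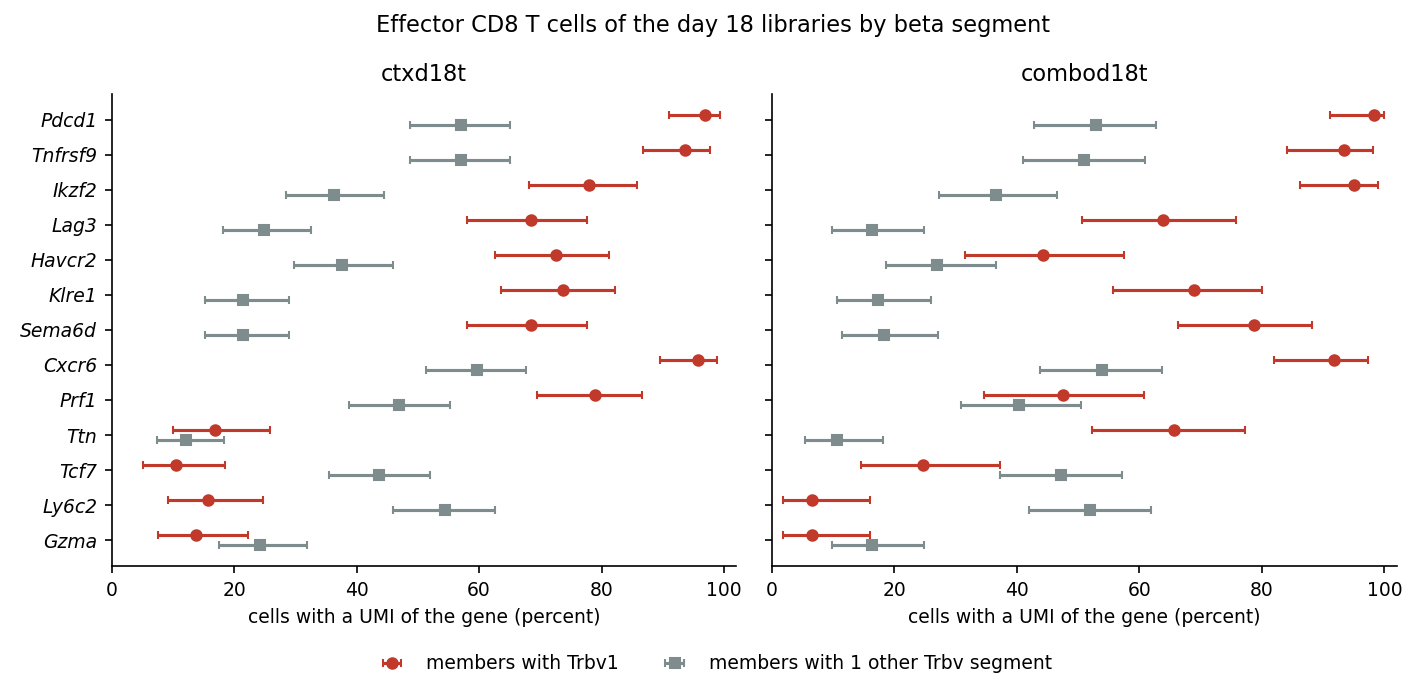
Percent of cells with a UMI of each of 13 genes (x axes), unthinned, among members with Trbv1 (circles) and with 1 other Trbv segment (squares) in ctxd18t and combod18t; bars are exact Clopper-Pearson intervals. Pdcd1 stands at 96.8% and 98.4% in Trbv1 members and at 57.0% and 52.9% in other members.

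Several genes differed between the day 18 libraries within the Trbv1 members and by less in members with another segment; the difference of these differences was not tested. Prf1 was at 545 CPM in Trbv1 members of ctxd18t and 103 in those of combod18t, and at 121 and 84.0 CPM in members with another segment. Ttn, which encodes the muscle protein titin and was 1 of the 6 genes named by size as higher in combod18t, was at 25.7 CPM in Trbv1 members of ctxd18t and 419 in those of combod18t, and at 36.1 and 33.2 CPM in members with another segment. A Ttn UMI was found in 16.8% of Trbv1 members in ctxd18t and 65.6% in combod18t. St6galnac3 was at 191 and 647 CPM in Trbv1 members and 104 and 190 CPM in the others. Mki67 was at 375 and 109 CPM in Trbv1 members and at 518 and 482 CPM in the others, although a Mki67 or Top2a UMI was found in 63 of 95 and 40 of 61 Trbv1 members. As a description of the effector clause, Ccl5 had a UMI in 94 of 95 Trbv1 members of ctxd18t and 61 of 61 of combod18t, Gzmk in 28 and 19, and Gzmb in 44 and 8. Ccl4 was lower in combod18t in both kinds of member, at 307 and 58.9 CPM in Trbv1 members and at 450 and 97.0 CPM in the others. Ifng and Ccl3 were close in Trbv1 members, at 98.6 and 104 CPM and at 113 and 103 CPM, and lower in combod18t among members with another segment, at 57.0 and 24.9 CPM and at 59.1 and 9.24 CPM. These combod18t values rest on few cells: over all its members, 19 had a Ccl3 UMI and 5 of them held 78.9% of the counts. For Ifng, 5 cells held 44.9% of the combod18t counts. Havcr2 was at 337 and 183 CPM in Trbv1 members and at 185 and 110 CPM in the rest, so it was lower in combod18t in both. Pdcd1 did not part the libraries, at 703 and 725 CPM in Trbv1 members. Relative to the early libraries, members with other segments at day 18 were at 273 and 335 CPM for Pdcd1, against 231, 207 and 284 CPM in all MRX, CTX and Combined members, and at 658 and 634 CPM for Ikzf2, against 88.3, 335 and 296.

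The alpha segments of the Trbv1 members differed between the day 18 libraries. In combod18t, 23 of 25 Trbv1 members with exactly 1 alpha segment carried Trav3-3 (92.0%, 74.0 to 99.0%) and 0 of 25 carried Trav3-1, which allows a share of up to 13.7%. In ctxd18t, 19 of 45 carried Trav3-3 (42.2%) and 15 of 45 carried Trav3-1 (33.3%, 20.0 to 49.0%). Members with another beta segment carried Trav3-3 in 16 of 54 cells in ctxd18t and 15 of 44 in combod18t, and Trav3-1 in 3 of 54 and 0 of 44. Over all members, Trav3-1 had 65 UMIs in ctxd18t and from 1 to 3 in each of the other 4 libraries. Among the Trbv1 members of ctxd18t, Pdcd1 had a UMI in 18 of 19 Trav3-3 and 15 of 15 Trav3-1 cells, Klre1 in 13 of 19 and 13 of 15, and Ttn in 4 of 19 and 2 of 15. In the Trav3-3 cells of combod18t, Pdcd1 had a UMI in 23 of 23 and Ttn in 15 of 23. The alpha segments were examined after the data were seen, and a shared segment does not show that cells belong to 1 clone, since many receptors use it.

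CD8 T cells that missed the effector clause also differed by segment, over few cells. At day 18, Pdcd1 had a UMI in 15 of 21 Trbv1 and 11 of 79 other cells in ctxd18t, and in 16 of 26 and 14 of 141 in combod18t. Klre1 was found in 12 of 21 and 7 of 79, and in 9 of 26 and 6 of 141, and Ttn in 6 of 21 and 5 of 79, and in 13 of 26 and 8 of 141.

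The Trbv2 members of MRX were set beside the rest of their library in the same way. Pdcd1 was at 273 CPM in the 76 Trbv2 members and 229 in the 162 with another segment (log2 ratio 0.25, -0.06 to 0.57). Il7r was lower in Trbv2 members, at 101 and 275 CPM (-1.44, -1.92 to -1.01), and Gzma was higher, at 321 and 171 CPM (0.90, 0.59 to 1.22). Ikzf2 was at 62.9 and 119 CPM (-0.91, -1.55 to -0.34) and Tnfrsf9 at 182 and 137 CPM (0.41, 0.01 to 0.80).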

How the data were processed

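The authors deposited raw UMI counts per gene and cell, whole numbers without normalization, for 33696 genes; per the labels' protocols they were made with Cell Ranger 9.0.1, and the submitters' processing notes name build GRCm39 and Seurat 5.2.0. Samples were grouped by treatment label, 1 library each. Counts were analysed with scanpy 1.11.5, scipy 1.17.1 and numpy 2.4.6. Members were chosen by the rule in the text, and their counts were summed per library and scaled to CPM. Ratios used a pseudocount of 1 CPM, so fold changes of low genes are understated. Genes of the rule were left out of calls. Intervals were exact Clopper-Pearson for shares, Newcombe for differences, exact Poisson for levels and conditional binomial for ratios, and the steps were tested on simulated data. Scrublet's automatic threshold marked under 0.5% of cells per library, so doublets were not removed in the main values; an alternative removed the highest 5% of scores. The members, the 15 gene lists, the 14 marker lists and the comparisons were chosen with earlier results of these data known. Named genes were a preset list, genes of the lists past the limit in either combination comparison (up to 4 each), and the 6 highest and 6 lowest ratios per comparison without markers of other cell types; others were named after their values were seen. Trbv segments were matched by symbol. Depth ranged from 39820290 to 100733879 UMIs per library. Further alternatives changed the filters, depth, scaling and pseudocount, or left out cycling cells, other lineages or carriers.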

Additional observations from a re-analysis of the deposited data

Results flagged for a closer look

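The 9 genes below had log2 ratios of opposite sign in the early pair, Combined against CTX (given first), and the day 18 pair, combod18t against ctxd18t. The difference between the pairs was not tested, each pair is 1 library against 1 library, the labels give a day for the second pair only, and an exchange of the day 18 labels would turn the second value of each. Perforin (Prf1) had log2 ratios of 0.36 and -1.20, and Gzma 0.78 and -0.31. Ccl1 had -2.21 and 0.44, on counts from few cells and with the same sign, -1.80 and -0.20, without carriers, and Ccr7 -0.37 and 1.12. Ifitm1 had 1.24 and -0.94, with 47.1% to 64.3% of its counts in 5 cells in each of the 4 libraries, and Cxcl10 1.12 and -2.67, the latter -0.28 without carriers. Ttn had -1.07 and 2.11, the first on few counts, and Ptprk -1.50 and 1.85, with 95.6% of its combod18t counts in 5 cells. Pdcd4 had -0.27 and 0.86.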

How the results depend on the processing

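No paired analysis was possible because each group is 1 library without a replicate number, and no replicate could be left out. Among alternative values of shares and counts of genes, 116 stayed close and 30 moved; differences in share left the interval of the reported value only with thinning to 2000 UMIs, where the difference was -0.00272 points in Combined against CTX, -4.69 in CTX against MRX and -4.69 in Combined against MRX. In Combined against CTX it was -0.440 points without carriers and -0.635 with the effector clause at 4, both with intervals including 0, and in combod18t against ctxd18t -1.83 without carriers and -1.92 with thinning. For Combined against CTX, genes called higher numbered 18 with thinning, 7 with C1q genes at 0, 2 with the mean of each cell's CPM, 27 without cycling members, 2 without other lineages and 10 without carriers; genes called lower numbered 64 with C1q genes at 0, 15 with a pseudocount of 10 CPM, 12 with the mean CPM, 37 without cycling members and 7 without carriers. For combod18t against ctxd18t, genes higher numbered 38 with thinning, 9 with the larger pseudocount and 27 without cycling members, and genes lower 40 with the mean CPM and 13 without carriers. Against MRX, CTX had 70 genes higher without carriers and 30 lower with the mean CPM, and Combined had 218 higher without cycling members. The day 18 counts above were 36 with median-of-ratios scaling and 41 without cycling members, and those below were 5 with thinning, 7 with that scaling and 4 without cycling members. With at least 2 UMIs of a segment, Trbv2 was 57.6% in MRX and 29.8% in CTX, and Trbv1 45.7% in ctxd18t. Single ratios turned in direction without cycling members for Gzmc (1.64, Combined against CTX), Ptprk (-0.87, combod18t against ctxd18t) and Rrm2 (-0.74, Combined against MRX). Without other lineages those of Gzmc (0.60) and Klra3 (-1.14) turned, and with C1q genes at 0 that of Saa3 (0.013), all in Combined against CTX. Without carriers, in combod18t against ctxd18t, they turned for Wfdc18 (0.045), Csn3 (0.43), Ccnd1 (0.089), Cxcl11 (0.76), Rsad2 (0.20), Vegfa (1.16) and Fcer1g (0.40), all then too low to be compared, so that these values show no direction. The cause was not tested. Leaving out carriers, the alternatives of the day 18 counts and the segment requirement were chosen after the data were seen. Combined had the fewest members, 223, and MRX members the lowest median depth.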
